A study of Mus musculus with 18 samples.

Results

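Diethylnitrosamine (DEN) was given once to GKO mice as pups, and the liver tissue outside the tumours was compared here with the liver of GKO mice of the same age that never received it. The question was what a single early dose of this carcinogen leaves in liver that has not become tumour, in animals that lack miR-181ab1. The members are the genes that averaged 0.5 or more in TPM, a transcript's share of a library corrected for gene length, over the 3 GKO non-tumour and the 3 GKO normal livers. That rule kept 13530 of 54838 genes and used 6 of the 18 samples of the series. All mice were C57BL/6 and 36 weeks old when the liver was taken. GKO is a global knockout, so Mir181a-1 and Mir181b-1 are deleted in every cell type, in the DEN-treated and in the untreated animals alike. The DEN groups received 25 mg/kg by intraperitoneal injection on postnatal day 12, and normal livers are from mice given no DEN. The paper gives the sex of the DEN-injected pups as male and does not state that of the untreated mice. The remaining samples are GKO tumours and the matching tumour, non-tumour and normal livers of wild-type (WT) mice, each group with 3 samples. The study's supplement describes its DEN tissue as taken from separate mice within a group. The labels do not say so for the normal livers, or whether a non-tumour sample shares a mouse with a tumour sample, so for the normal livers the spread behind the p-values may be technical.

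DEN is a nitrosamine that needs activation by cytochrome P450 enzymes, chiefly in hepatocytes around the central vein, and the activated product adds ethyl groups to DNA. Given to young mice while the liver is still growing, it fixes mutations in dividing hepatocytes, and tumours appear many months later in a liver with little scarring. The miR-181 family is carried in several clusters of the genome, and the cluster deleted here encodes one copy of miR-181a and one of miR-181b.

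The mature strands that both GKO groups lack from this locus are shown because they define the genotype shared by every sample of the comparison. They are printed 5′ to 3′ from RefSeq on GRCm38.p6, with the seed (bases 2 to 8) in capitals.
mmu-miR-181a-5p, chr1:137966468-137966490, plus strand: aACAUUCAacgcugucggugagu
mmu-miR-181b-5p, chr1:137966650-137966673, plus strand: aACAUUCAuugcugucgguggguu
The seed is the same in both. Mir181a-1 and Mir181b-1 are listed at 0 in all these samples, WT included, so the files do not show the genotype. Cbx7, a Polycomb gene studied in this model, had 5.04, 4.09 and 3.67 TPM in GKO non-tumour 1, 2 and 3, and 2.21, 1.82 and 4.89 TPM in GKO normal 1, 2 and 3. One normal liver was within the range of the non-tumour livers, and the difference was 0.48 on the log2 scale (SE 0.30, unadjusted p = 0.15 from limma).

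Reads on genes numbered between 13808732 and 15858743 in the 6 livers. Between 19183 and 19891 genes were above 0 in 5 of them, and 16634 in GKO normal 3. Pearson correlation of log2(TPM + 1) across genes was 0.947 to 0.977 within the groups and 0.947 to 0.969 between them, so the livers of one group were about as unlike each other as livers of different groups. All 10 hepatocyte markers were measured, with summed levels of 77960 to 105282 TPM in non-tumour and 90690 to 114619 TPM in normal liver, and none differed at an unadjusted p under 0.05. Of 14 pancreatic, adipose and muscle markers, 1 reached the level needed for testing and 6 were at 0 in all 6 livers. Among the WT livers used for comparison, the library labelled WT non-tumour 2 stood apart. Its 25 mitosis genes summed to 136 TPM, against 5.90 to 11.2 TPM in the other 5 WT non-tumour and normal livers, 5.82 to 11.2 TPM in the 6 GKO livers and 28.9 to 351 TPM in the 6 tumours of both genotypes. It lay within the range of the tumours in this measure, and whether that piece of tissue held tumour was not tested further. The WT values that follow are given with and without it where they bear on a result.

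Across the 13530 genes, no difference between non-tumour and normal GKO liver passed correction for the number of genes. limma called 0 genes at an adjusted p under 0.05, which is 0% of those tested, and the smallest adjusted p was 0.208. At an unadjusted p under 0.05 there were 703 genes, of which 580 were higher in non-tumour liver (4.29% of those tested) and 123 were lower (0.909%). With no difference in any gene, 676 would be expected at that threshold, so 703 is close to that number. Groups that did not overlap at all were found for 964 genes on the higher side (7.12%) and for 217 on the lower side (1.6%). The median difference was 0.08 on the log2(TPM + 1) scale and 65.0% of genes had a higher mean in non-tumour liver. The preponderance of higher genes depends on scaling: 82.5% of the 703 genes were higher as deposited, 59.0% of 687 after centring each liver on its median gene, and 57.6% of 696 after quantile normalization, with the median of all genes moving to -0.03 and -0.02. The median SE was 0.253 and the median half-width of a 95% interval was 0.584 on the log2 scale. In a typical gene a smaller difference would not reach an unadjusted p under 0.05. A call after correction needs a difference larger still. A difference of more than 1 on that scale was seen in 311 genes. Because no gene was called, differences below are given as values with unadjusted p from limma, and no gene is said to have changed. The adjusted p of every gene named below lies between 0.208 and 1.

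**Figure D1:**
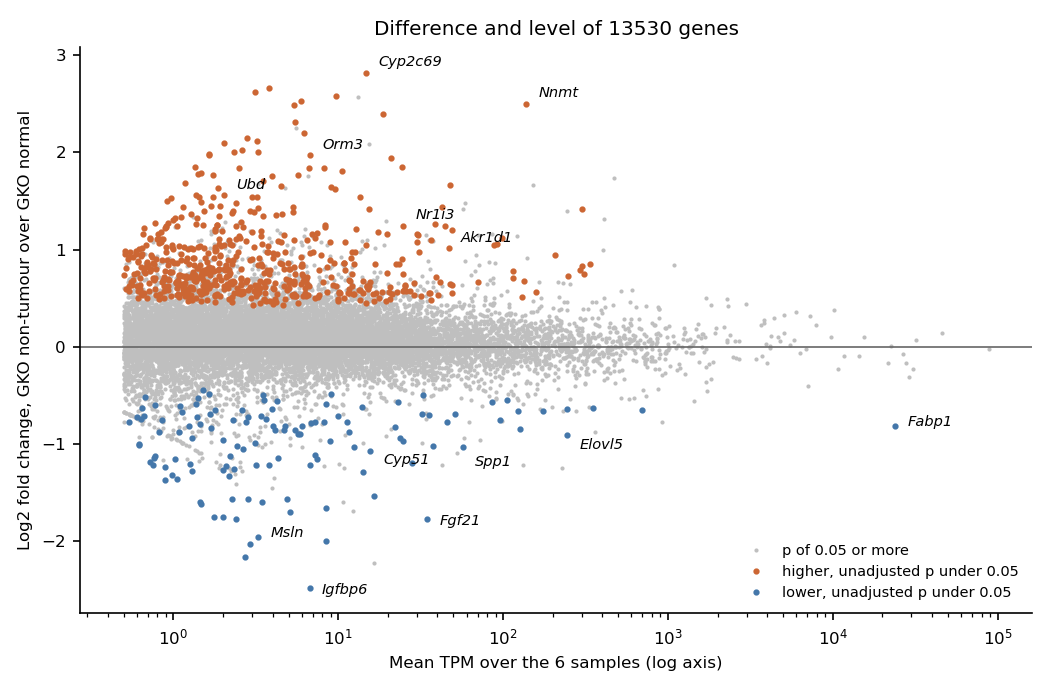
Difference between GKO non-tumour and GKO normal liver (vertical axis, log2 scale) against mean level (horizontal axis, TPM, log scale) for the 13530 genes, with the 703 genes at an unadjusted p under 0.05 coloured. Coloured points above 0 (580) outnumber those below (123), and 311 genes lie more than 1 from 0.

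Many genes at the top of the ranking rest on few reads. Of 320 short RNA genes tested, 285 had a mean under 10 reads, with a median of 1.17, and 49 of them were higher and 15 lower at an unadjusted p under 0.05. mt-Ts1, a mitochondrial tRNA gene, and Mir221 each had 1 read in every non-tumour liver and 0 in every normal liver, and Mir5100 had 1, 1 and 3 reads against 0. Among 11181 protein-coding genes, 372 (3.33%) were higher and 65 (0.581%) lower, and 78 protein-coding genes at that threshold differed at least 2-fold on the log2(TPM + 1) scale.

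The genes chosen by the smallest unadjusted p among those whose groups do not overlap included 1 coding gene on the higher side. This was Ubd, which encodes the ubiquitin-like modifier FAT10, a protein induced by inflammatory cytokines and known to be raised in liver cancer. Ubd lies at chr17:37193892-37196095 on the plus strand of mm10. Its levels were 3.02, 3.15 and 4.40 TPM in non-tumour liver and 0.526, 0.533 and 0.505 TPM in normal liver, from 22, 23 and 33 reads against 4 in each normal liver. Every non-tumour liver was above every normal liver, which the choice of genes required. The normal livers were nearly equal, but each value rests on 4 reads, so their small SD may understate the spread. The mean was 3.52 ± 0.76 TPM against 0.521 ± 0.0147 TPM (SD, n = 3 each). The difference was 1.56 on the log2 scale (SE 0.20, 95% interval 1.09 to 2.03), with an unadjusted p of 6e-05 and an adjusted p of 0.208 from limma. In the GKO tumours Ubd stood at 9.65, 3.81 and 5.89 TPM. The same comparison in WT liver gave 2.46 (unadjusted p = 0.0115 from limma), or 1.62 without WT non-tumour 2.

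The other genes so chosen on the higher side were noncoding RNAs. The lincRNA 1810012K08Rik had 23, 14 and 16 reads in non-tumour liver and 2, 0 and 0 in normal liver, and differed by 2.10 (SE 0.25, unadjusted p = 3.19e-05). The lincRNA Gm6135 stood at 4.81, 4.46 and 4.67 TPM against 1.32, 0.667 and 1.58 TPM, a difference of 1.39 (SE 0.22). 1700021J08Rik and Gm17112, both annotated as antisense, had no reads in any normal liver. Against a floor of 3 reads per library, 1700021J08Rik was at least 4.28-fold and Gm17112 at least 2.79-fold higher in non-tumour liver. The sources used here do not say whether counting used strand, so reads of an antisense gene may belong to its partner. The lincRNA Gm47754 and the 5S rRNA gene n-R5s39, one of many like copies, with 2, 1 and 2 reads against 0, complete this set.

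On the lower side the ranking, which also required groups without overlap, held Spp1, Igfbp6, Msln and Pdzk1ip1 among coding genes. Spp1, osteopontin, is a secreted matrix protein made in liver by bile duct cells and macrophages, and it is a common tumour marker. Spp1 had 47.7, 38.1 and 26.9 TPM in non-tumour and 81.9, 69.0 and 77.8 TPM in normal liver, so all 3 non-tumour livers were lower. The difference was -1.03 (SE 0.25, unadjusted p = 0.00336), and 2 of the 3 GKO tumours were far higher, with 34.0, 934 and 536 TPM. In WT liver Spp1 differed by 0.42, or 0.08 without WT non-tumour 2. The difference between genotypes was -1.46 (unadjusted p = 0.00602, adjusted p = 0.724 in limma), or -1.11 without that liver. Igfbp6, which binds insulin-like growth factor II, had 5.17, 0.115 and 0.558 TPM against 10.8, 14.3 and 9.30 TPM, a difference of -2.48 (SE 0.57). Msln, mesothelin, is a surface protein of the mesothelial cells that cover the liver capsule. Msln stood at 2.72, 0.121 and 0.0587 TPM against 7.52, 5.11 and 4.0 TPM, a difference of -1.96 (SE 0.48). Non-tumour 1 was the highest of the non-tumour livers for both genes and still below every normal liver.

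Because Msln is a mesothelial gene, 10 mesothelial genes were summed, in a list chosen after these values were seen. The sum was 20.8, 2.80 and 3.42 TPM in GKO non-tumour, 40.1, 37.8 and 28.4 TPM in GKO normal, 25.9, 65.2 and 2.48 TPM in WT non-tumour and 8.02, 8.62 and 0.753 TPM in WT normal liver. In GKO the sum was lower after DEN without overlap, but it was mostly Msln, Igfbp6 and Slpi, and the first 2 of these prompted the list. The other 7 genes summed to 5.44, 0.727 and 0.488 TPM in GKO non-tumour and 4.29, 8.19 and 4.08 TPM in GKO normal liver, so non-tumour 1 was within the range of the normal livers. In WT non-tumour 2, Slpi alone made up 63.2 TPM, while Msln was at 0. How much capsule each piece of tissue held is not in the labels, and its part in the lower Msln and Igfbp6 was not tested. In bulk tissue, fewer cells of a type and less RNA per cell cannot be told apart. Among the lower genes, Rps19-ps3, a ribosomal protein pseudogene, stood at 4.50, 3.00 and 3.49 TPM against 11.2, 7.86 and 10.5 TPM, a difference of -1.22, and the WT value was -1.12. Pdzk1ip1, a small membrane protein, differed by -0.85, with 2.16 to 3.23 TPM against 5.23 to 6.12 TPM. Gm15644 had no reads in non-tumour liver and 10, 2 and 5 reads in normal 1, 2 and 3. Its mean in normal liver was 1.81-fold that of a floor of 3 reads per non-tumour library, and normal 2 lay below that floor. Gm23354, Gm13717, Gm16587 and the microRNA gene Mir8116 (0, 1 and 0 reads against 3, 4 and 5) complete the set.

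**Figure D2:**
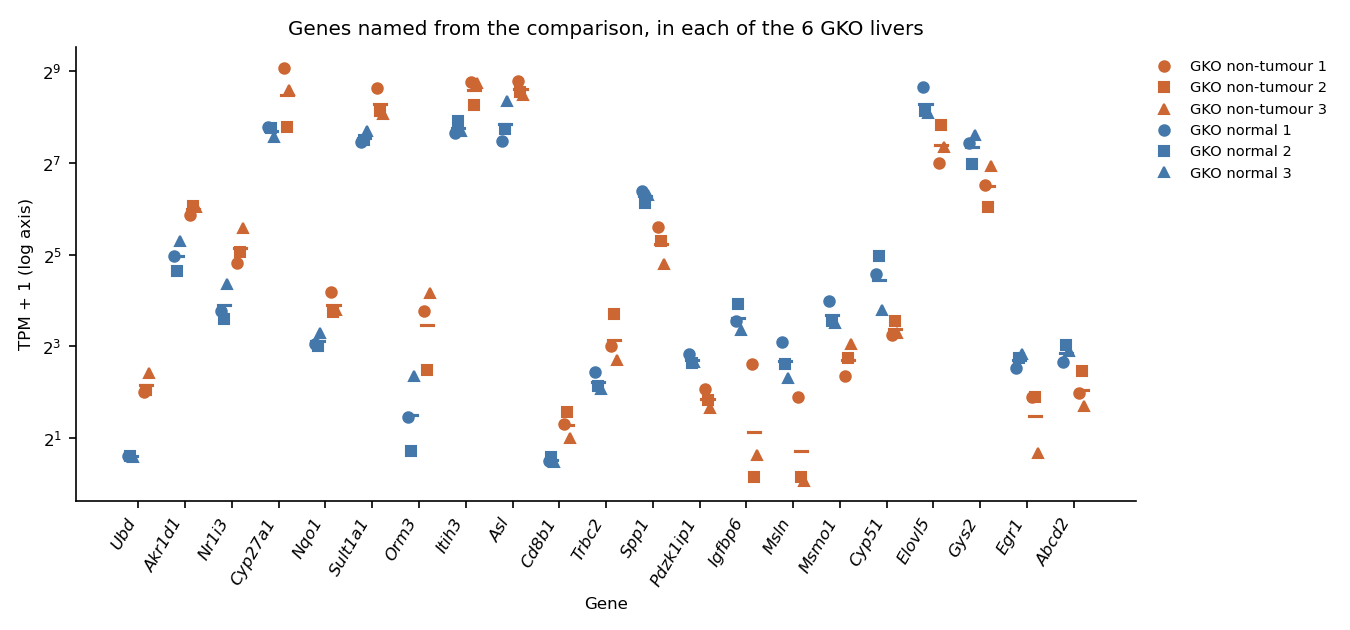
Level of 21 named genes in each of the 6 GKO livers (TPM + 1, log axis), with a bar at each group's mean on that scale. Ubd, Nr1i3 and Akr1d1 lie higher in all 3 non-tumour livers, and Spp1, Msmo1 and Cyp51 lower.

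Gene lists were read against the same measures over all genes: a median difference of 0.08, and 4.29% higher and 0.909% lower at an unadjusted p under 0.05. For WT liver the median of all genes was 0.32, with 22.4% higher and 2.04% lower at an unadjusted p under 0.05. Where few members of a list reached that threshold all of them are named, some of them outside the naming rule and so chosen after their values were seen.

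Resident macrophages of the liver, the Kupffer cells, clear particles and dying cells and carry complement C1q, Clec4f and Marco. All 14 markers of this list were measured and all 14 had a higher mean in non-tumour liver, with a median difference of 1.05. At an unadjusted p under 0.05, 2 of the 14 were higher (Marco and C1qc) and 0 lower. Their summed level was 1469, 302 and 580 TPM in non-tumour 1, 2 and 3, and 495, 224 and 220 TPM in normal 1, 2 and 3. Non-tumour 1 was the highest liver for every one of the 14 markers, and non-tumour 2 lay below normal 1 in the sum. Marco, a scavenger receptor, had 84.5, 8.69 and 13.1 TPM against 12.5, 2.38 and 3.54 TPM, a difference of 1.94 (SE 0.83, unadjusted p = 0.0468). C1qc had 126, 21.3 and 50.4 TPM against 29.1, 14.3 and 15.0 TPM, a difference of 1.43 (SE 0.59). Clec4f, specific to Kupffer cells in mouse, had 196, 55.6 and 106 TPM against 91.0, 31.6 and 34.9 TPM, and differed by 1.16 with overlap. Without non-tumour 1 the median fell to 0.52 and 0 of the 14 reached the threshold, without non-tumour 2 it was 1.58 with 13 of 14, and without normal 1 it was 1.39 with 7 of 14. Without normal 2 or normal 3, 0 of 14 reached it. For WT liver the list's median was 1.18, or 1.68 without WT non-tumour 2. Markers of recruited monocytes and macrophages gave a median of 0.13 over 8 of 12 tested, or -0.03 without normal 3, with Spp1 as the 1 member at the threshold and lower.

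**Figure D3:**
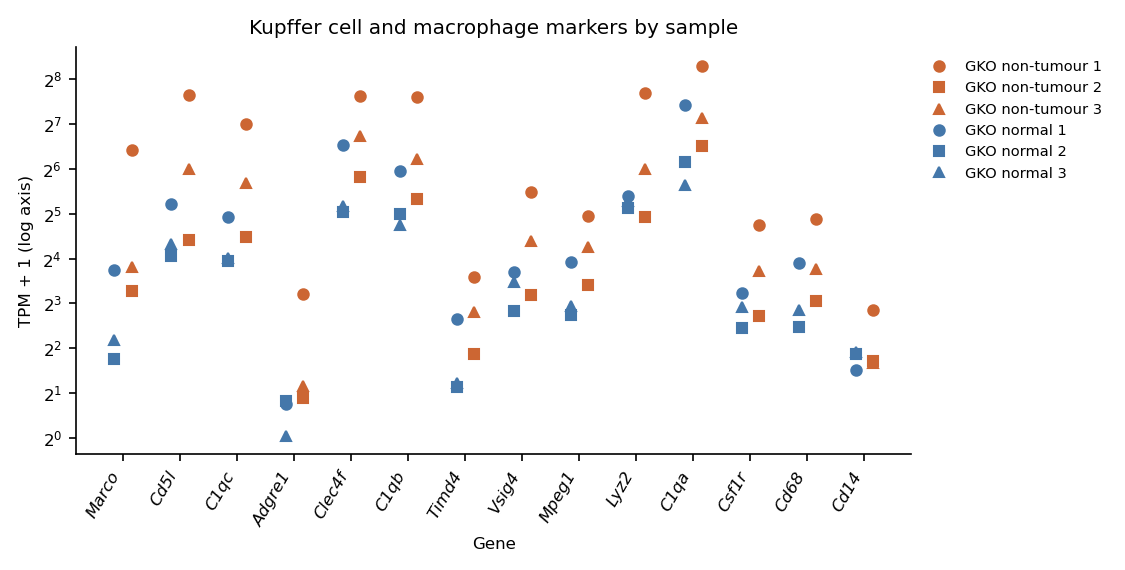
Level of the 14 Kupffer cell and macrophage markers in each GKO liver (TPM + 1, log axis). Non-tumour 1 is the top point for all 14 genes, and non-tumour 2 lies among the normal livers for many of them.

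T and NK cell markers showed 4 of 11 tested higher and 0 lower, namely Cd8b1, Trbc2, Cd3d and Cd8a, all of which encode parts of the T cell receptor complex or its CD8 coreceptor. The list's median was 0.49, with 9 of 11 positive, and it ran from 0.25 (without non-tumour 1) to 0.58 (without normal 3) when single livers were left out. Cd8b1 stood at 1.46, 1.98 and 1.00 TPM against 0.412, 0.502 and 0.396 TPM, a difference of 0.77 (SE 0.22, unadjusted p = 0.00857). Trbc2, a constant segment of the receptor's beta chain, stood at 7.01, 12.0 and 5.56 TPM against 4.42, 3.41 and 3.23 TPM, a difference of 0.92 (SE 0.28). All 3 non-tumour livers were above all 3 normal livers for both genes. The summed level of the list overlapped, with 36.3, 43.5 and 22.9 TPM in non-tumour 1, 2 and 3, and 21.1, 16.3 and 28.6 TPM in normal 1, 2 and 3. Ccl5, a chemokine of activated T and NK cells, differed by 0.49 with overlap. After median centring, 2 of the 11 were at the threshold. B cell and plasma cell markers had 0 of 10 at the threshold in either direction.

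Cell types of the vessels, ducts and scar gave smaller values. Among stellate cell and fibroblast markers, 1 of 17 tested was lower and the median was -0.26. Col1a1, a fibrillar collagen made by activated stellate cells, had 1.19, 1.46 and 0.435 TPM in non-tumour and 2.74, 4.22 and 1.90 TPM in normal liver, a difference of -0.96 (SE 0.30, unadjusted p = 0.0127). Col3a1, the collagen that accompanies it, differed by -0.88 with overlap, and Dcn, a matrix proteoglycan, by -0.14. In WT liver Col1a1 differed by 1.28, or 0.83 without WT non-tumour 2. The difference between genotypes was -2.24 (SE 0.62, unadjusted p = 0.00375, adjusted p = 0.724 in limma), or -1.79 without that liver. The stellate median was -0.05 without non-tumour 3, -0.16 without normal 1 and -0.39 without non-tumour 1, with 0 (without non-tumour 3 or normal 2) to 5 (without normal 3) of 17 lower. Among cholangiocyte markers 2 of 8 were lower, the keratin Krt19 (-1.23) and the adhesion protein Epcam (-0.65), and the median was -0.24, or -0.10 without non-tumour 3, -0.12 without normal 1 and -0.41 without normal 3, with 0 lower without non-tumour 3 or normal 2. Endothelial markers had a median of 0.26 over 14, with Cdh5, the cadherin of endothelial junctions, higher by 0.61. Without non-tumour 1 the endothelial median was 0.17.

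Most genes of sterol synthesis had a lower mean mRNA level in non-tumour liver. The pathway turns acetyl-CoA into cholesterol, and its genes are switched on together by SREBP2 when sterols run short. Of 22 cholesterol synthesis genes tested, 0 were higher and 4 lower at an unadjusted p under 0.05 (Msmo1, Cyp51, Nsdhl and Fdft1), 20 had a lower mean, and the median was -0.29. Msmo1, a C4-methyl sterol oxidase, lies at chr8:64718139-64733792 on the minus strand of mm10. Msmo1 had 4.12, 5.69 and 7.25 TPM in non-tumour and 14.9, 10.8 and 10.5 TPM in normal liver, so every non-tumour liver was lower. Its mean was 5.69 ± 1.57 TPM against 12.0 ± 2.45 TPM (SD, n = 3 each). The difference was -0.97 (SE 0.25, unadjusted p = 0.00443). Cyp51, lanosterol 14-demethylase, had 8.56, 10.7 and 8.85 TPM against 22.9, 30.2 and 12.9 TPM, a difference of -1.08 (SE 0.31, unadjusted p = 0.00806). Nsdhl, which acts with Msmo1 in removing the C4 methyl groups, had 3.58, 6.71 and 5.04 TPM against 9.13, 11.5 and 7.45 TPM, a difference of -0.77 (SE 0.26). Among members chosen for their level, Hmgcs1, which makes HMG-CoA, differed by -0.55 with overlap and Ebp, a sterol isomerase, by -0.11. The groups were not cleanly apart in the sum: it was 465, 435 and 420 TPM in non-tumour and 604, 584 and 418 TPM in normal liver, with normal 3 at the level of the non-tumour livers. The median over the list was -0.40 after median centring and lay between -0.24 and -0.41 when single livers were left out, with 2 (without normal 2) to 7 (without normal 3) of 22 lower.

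Promoters of the lowest of these genes are shown around the letters CCAAT, which nuclear factor Y, a partner of SREBP, is known to bind. The 300-base window from 250 bases before to 50 bases after the RefSeq start (GRCm38.p6) was searched for CCAAT on both strands. All 16 cholesterol synthesis genes with an entry, of 23 listed, held it, against 11096 of 27025 genes in the table (41.1%). A match describes letters only. The copies before the start are printed. Each stretch is 25 bases, 5′ to 3′ on the strand of the gene, with CCAAT or its reverse complement ATTGG in capitals.
Msmo1, chr8:64733724-64733748, minus strand: atccgcgcagCCAATgactggcgcc
Msmo1, chr8:64733660-64733684, minus strand: ttagcacggaCCAATcactgcacgg
Msmo1, chr8:64733619-64733643, minus strand: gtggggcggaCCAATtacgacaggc
Cyp51, chr5:4104712-4104736, minus strand: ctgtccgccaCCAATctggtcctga
Nsdhl, chrX:72918402-72918426, plus strand: cccgcttcccATTGGtttgggaacg
Nsdhl, chrX:72918491-72918515, plus strand: gactagcctcATTGGgcaaaatcat
Msmo1 held 3 copies and Cyp51 1 within the window, all before the RefSeq start. Nsdhl held 4, of which the other 2 lie after its start. The annotation behind the Msmo1 position given above starts that gene further upstream, so its 3 copies lie inside that span. No binding was measured in these samples.

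In WT liver the same sterol genes lay on the other side. All 23 tested there had a higher mean in non-tumour liver, with a median of 1.26. Of all genes tested in WT, 79.7% had a higher mean in non-tumour liver, with a median of 0.32. WT non-tumour 2, the liver with mitosis genes at the level of tumours, stood far apart here too, with a summed level of 2382 TPM against 543 and 740 TPM in the other WT non-tumour livers and 339 to 490 TPM in WT normal liver. Without it, 21 of 22 were still higher, with a median of 0.52, against a median of 0.28 over all genes. The difference of the DEN effect between genotypes, GKO minus WT, was negative for all 23 genes with a median of -1.67, and 13 of 23 had an unadjusted p under 0.05. Without WT non-tumour 2 it was negative for all 22 tested with a median of -0.90, and 12 of them passed that threshold. None had an adjusted p under 0.05, and across all 13488 genes tested for this difference limma called 0 (0%), with 139 higher (1.03%) and 691 lower (5.12%) at an unadjusted p under 0.05 and a median of -0.22. Without WT non-tumour 2 there were 97 higher and 492 lower. After median centring of all 12 livers, with WT non-tumour 2 included, there were 408 higher and 230 lower, and the median of all genes was 0.05.

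**Figure D4:**
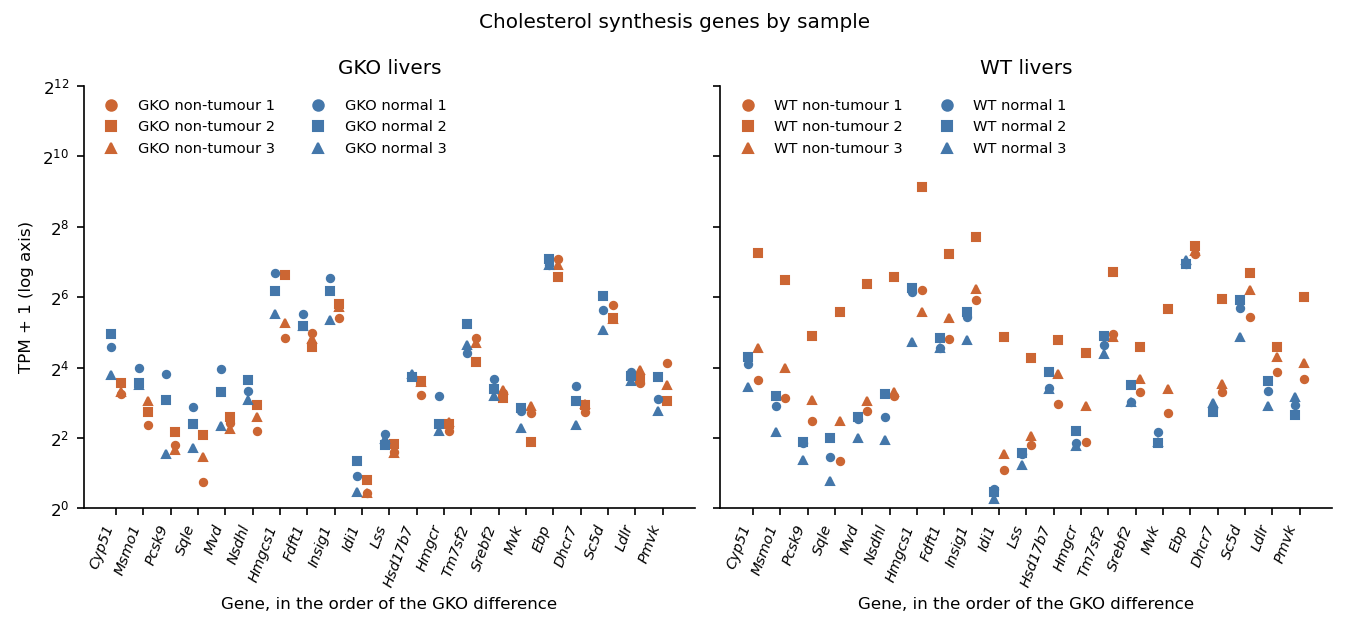
Level of 21 cholesterol synthesis genes in the GKO livers (left) and the WT livers (right), in TPM + 1 on a log axis. In GKO the non-tumour livers lie at or below normal 1 and normal 2 for most genes, and in WT non-tumour 2 is the highest liver for all 21.

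Genes of fatty acid oxidation, most of them targets of the fasting receptor PPAR alpha, also had lower means. Of 35 tested, 0 were higher and 4 lower (Cyp4a31, Fabp1, Ehhadh and Fgf21), 28 had a lower mean, and the median was -0.28. Fabp1, the liver's fatty acid binding protein, had 11437, 17860.2 and 22892 TPM in non-tumour and 36409, 33668 and 20808 TPM in normal liver. Normal 3 fell within the range of the non-tumour livers for Fabp1, and the difference was -0.82 (SE 0.32, unadjusted p = 0.036). Fgf21, the fasting hormone, had 10.2, 36.5 and 4.30 TPM against 31.4, 97.6 and 26.9 TPM, a difference of -1.77 (SE 0.73) with overlap. Cyp4a31, an omega-hydroxylase, differed by -0.94 and Acaa1b, a peroxisomal thiolase, by -0.45. Without non-tumour 2 the median was -0.09. From 1 (without normal 1 or normal 2) to 8 (without normal 3) of 35 were lower when single livers were left out. The WT median was 0.15, or 0.20 without WT non-tumour 2.

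Among lipogenesis genes 1 of 17 was lower and the median was -0.08. That was Elovl5, an elongase of polyunsaturated fatty acids, at 126, 224 and 162 TPM against 399, 279 and 270.3 TPM, a difference of -0.90 (SE 0.28, unadjusted p = 0.012). All non-tumour livers were below all normal livers for Elovl5. Gpam, which starts triglyceride synthesis, differed by 0.60 and Scd1, the stearoyl-CoA desaturase, by -0.51, both with overlap. The list's median was 0.07 without non-tumour 2 and -0.19 without non-tumour 1, and -0.19 after median centring. Over WT livers the median was 0.65 with 10 of 17 higher, or 0.79 with 8 without WT non-tumour 2. The genotypes differed by a median of -0.80 in either case, with 9 of 17 lower at an unadjusted p under 0.05, or 7 of 17 without that liver. In glucose metabolism Gys2, the liver glycogen synthase, was the 1 of 23 genes at the threshold, with 90.2, 64.1 and 120.2 TPM against 172, 124 and 193 TPM and a difference of -0.85 (SE 0.29). All 3 non-tumour livers were below all 3 normal livers for Gys2.

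The bile acid and drug metabolism lists held some genes that were higher in non-tumour liver with no overlap between groups. Akr1d1, the steroid 5-beta-reductase of bile acid synthesis, lies at chr6:37530173-37568815 on the plus strand of mm10. Akr1d1 had 57.3, 66.0 and 64.4 TPM in non-tumour and 30.5, 24.0 and 38.5 TPM in normal liver, with no overlap. Its mean was 62.6 ± 4.62 TPM against 31.0 ± 7.26 TPM (SD, n = 3 each). The difference was 1.01 (SE 0.23, unadjusted p = 0.00227), and in WT liver it was 1.32 (unadjusted p = 0.0365 from limma), or 0.73 without WT non-tumour 2. GKO tumours held 41.2, 13.8 and 66.9 TPM of Akr1d1, from below the normal livers to above the non-tumour livers. Cyp27a1, which oxidises the sterol side chain, had 535, 218 and 384 TPM against 217, 216 and 186 TPM, a difference of 0.79 (SE 0.33). Across 19 bile acid genes 2 were higher and 0 lower, with a median of 0.23, or 0.02 without non-tumour 1, 0.35 with 4 higher without non-tumour 2, and 0.12 and 0.13 without normal 3 and normal 1. Leaving out any liver other than non-tumour 2 left 1 of 19 higher.

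Nr1i3 encodes CAR, the nuclear receptor that turns on P450 and conjugation genes in response to foreign compounds. Nr1i3 had 27.3, 32.3 and 46.4 TPM in non-tumour and 12.6, 11.0 and 19.5 TPM in normal liver, with no overlap, and the difference was 1.25 (SE 0.29, unadjusted p = 0.00256). Sult1a1, a phenol sulfotransferase, had 394, 277 and 266 TPM against 174, 179 and 204 TPM, a difference of 0.73 (SE 0.23). Ahr, the dioxin receptor, had 8.62, 5.78 and 6.16 TPM against 4.15, 4.49 and 3.24 TPM, a difference of 0.65 (SE 0.22). These 3 and Cyp2a4 were the 4 of 27 xenobiotic genes that were higher at an unadjusted p under 0.05, with 0 lower. Cyp2d10, chosen for its high level, differed by -0.06. The list's median was 0.43, and it was 0.22 with 2 higher without non-tumour 1. Without non-tumour 2 or normal 3, 8 of 27 were higher.

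Targets of NRF2, the regulator of the antioxidant response, had 3 of 25 higher (Nqo1, Gstm3 and G6pdx) and 0 lower, with a median of 0.29. Nqo1, a quinone reductase, had 17.1, 12.5 and 12.9 TPM against 7.25, 7.11 and 8.85 TPM, a difference of 0.79 (SE 0.21, unadjusted p = 0.00572). The groups did not overlap for Nqo1. Gstm3, a glutathione transferase, had 44.0, 54.3 and 26.2 TPM against 19.2, 26.6 and 9.86 TPM, a difference of 1.16 (SE 0.40) with overlap. Gstm1, its abundant relative, differed by 0.44, and Ephx1, microsomal epoxide hydrolase, by 0.16. The NRF2 median was 0.17 with 1 higher without non-tumour 1, and 0.43 without non-tumour 3. The WT median of the list was 1.15, and 0.56 without WT non-tumour 2, whose summed level of 31715 TPM compared with 3689 to 6394 TPM in the other WT livers.

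Urea cycle and amino acid genes were higher in mean in 23 of 24 cases, with a median of 0.36, but 1 of 24 reached an unadjusted p under 0.05. That was Asl, argininosuccinate lyase, at 437, 368 and 354 TPM against 178, 211 and 322 TPM, a difference of 0.74 (SE 0.26). Prodh, which opens proline breakdown, differed by 1.05, Ass1, argininosuccinate synthase, by 0.50 and Hpd, of tyrosine breakdown, by 0.49, all with overlap. The median was 0.12 without non-tumour 1, 0.17 without normal 1 and 0.20 without normal 2, each with 0 of 24 at the threshold, while 8 were without normal 3 and 5 without non-tumour 2. Periportal genes, which share members with this list, had 3 of 26 higher (Asl, Aldh1b1 and Uroc1) and 0 lower, with a median of 0.41. The WT median was 0.02, or 0.11 without WT non-tumour 2. Cps1, the entry enzyme of the urea cycle, differed by 0.65 with overlap. The periportal median was 0.25 without non-tumour 1 and 0.26 without normal 2, with 1 of 26 higher in each case, and 11 of 26 were higher without normal 3. Pericentral genes gave a median of 0.08, or -0.03 after median centring, with 3 of 26 higher (Gstm3, Cyp27a1 and Ahr, given above). Without non-tumour 1 that median turned to -0.07 with 0 higher and 1 lower, and it was 0.27 without non-tumour 2, 0.22 without normal 2, 0.14 without non-tumour 3, 0.12 without normal 1 and near 0 with 1 higher and 1 lower without normal 3.

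Acute-phase genes encode plasma proteins that hepatocytes make under inflammatory cytokines. Of 27 tested, 4 were higher (Orm3, Itih3, Lcn2 and Apcs) and 0 lower, 26 had a higher mean, and the median was 0.40. Orm3, an orosomucoid, had 12.7, 4.62 and 16.8 TPM in non-tumour and 1.74, 0.642 and 4.10 TPM in normal liver, a difference of 1.97 (SE 0.52, unadjusted p = 0.00526). Itih3, an inter-alpha-trypsin inhibitor chain, had 432, 302 and 423 TPM against 198, 239 and 206 TPM, a difference of 0.83 (SE 0.23). Both genes were higher in all 3 non-tumour livers. Hp, haptoglobin, the gene with a high level in this list, differed by 0.32. The metallothionein Mt1 had 506, 122 and 1708 TPM against 255, 81.7 and 135 TPM, a difference of 1.74 (SE 0.86) carried by non-tumour 1 and non-tumour 3. The acute-phase median was 0.18 without non-tumour 3 and 0.64, with 14 of 27 higher, without non-tumour 2. Without non-tumour 1, non-tumour 3, normal 2 or normal 3, 2 of 27 were higher.

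Interferon-stimulated genes had 2 of 31 higher and 0 lower, with a median of 0.25. They were Cxcl9, a chemokine for T cells, at 6.73, 6.01 and 2.88 TPM against 3.45, 1.73 and 2.38 TPM (0.79, SE 0.32), and Oasl1 (0.75, SE 0.32). The list's median was 0.08 with 0 higher without normal 2, and 0.50 with 9 higher without normal 1. Among MHC genes 1 of 14 was higher, H2-Q4 by 0.53, while H2-Q10, a secreted class I molecule made by liver, differed by -0.43 with no overlap between groups. H2-Q10 had 848, 594 and 774 TPM against 889.9, 1058 and 1024 TPM.

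Genes of DNA damage and of cell division gave medians near that of all genes. Of 19 p53 target genes tested, 0 were at the threshold in either direction, and the median was 0.16, or 0.05 after median centring, 0.27 with 1 higher without normal 1 and 0.11 without normal 3. Bbc3, which encodes the cell-death protein PUMA, had 17.4, 15.3 and 16.3 TPM against 13.2, 13.5 and 10.4 TPM, a difference of 0.38 (95% interval -0.07 to 0.84) without overlap. Cdkn1a, the cell cycle inhibitor p21, had 2.34, 8.15 and 1.29 TPM against 2.03, 1.22 and 0.231 TPM, a difference of 1.03 (95% interval -0.20 to 2.25), with non-tumour 2 alone far above the rest. DNA repair genes had 2 of 22 higher, 0 lower and a median of 0.09, or -0.02 after median centring. That median was 0.22 without non-tumour 2 and 0.05 without non-tumour 1, and leaving out any liver other than normal 3 left 1 higher. The higher ones were Ddb2, which finds bulky lesions, at 2.01, 2.57 and 2.13 TPM against 1.34, 0.680 and 0.773 TPM (0.76, SE 0.22, unadjusted p = 0.00807), and Ogg1, which removes oxidised guanine (0.46, SE 0.19). Mgmt, which takes alkyl groups off guanine, differed by 0.34 (95% interval -0.24 to 0.92), so its level neither separated the groups nor bounded the difference tightly. S phase genes had 0 of 18 at the threshold with a median of 0.03, or -0.08 after median centring, 0.20 without non-tumour 2, 0.12 without normal 3 and -0.04 without non-tumour 1. Mitosis genes had 0 of 6 of 25 listed and a median of 0.12, or -0.04 without non-tumour 3 and 0.28 without non-tumour 2. Rrm2, a ribonucleotide reductase subunit, differed by 0.48 and Birc5, survivin, by 0.47, both with intervals that include 0. Among 12 tumour markers tested, 1 was higher: Tff3, a secreted mucosal peptide, at 57.8, 14.8 and 43.8 TPM against 14.9, 11.1 and 3.57 TPM, a difference of 1.85 (SE 0.59) with overlap between non-tumour 2 and normal 1. For that list 0 were higher and 1 lower without non-tumour 1, 3 were higher without non-tumour 2 and 2 without non-tumour 3.

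Immediate early and heat shock genes had lower medians in non-tumour liver. Immediate early genes, which respond within minutes to handling and to growth factors, had 2 of 16 lower and 0 higher, with a median of -0.31, or -0.02 without non-tumour 3 and -0.08 without normal 1. Egr1, a zinc-finger transcription factor, had 2.73, 2.7 and 0.609 TPM against 4.77, 5.76 and 6.16 TPM, a difference of -1.22 (SE 0.34, unadjusted p = 0.00723). Atf3 differed by -0.49, and all 3 non-tumour livers were below all 3 normal livers for both genes. Heat shock genes had 0 of 14 at the threshold and a median of -0.36, with 13 of 14 lower in mean. Normal 1 was the highest for that list, and without it the median was -0.12, while without non-tumour 3 it was -0.20 and without normal 3 it was -0.62 with 4 lower. Hspb1 had 118, 113 and 72.7 TPM against 251, 129.7 and 103 TPM. Genes of the stress response to unfolded protein and missing amino acids had 1 of 22 higher and 2 lower, 10 higher in mean, and a median of -0.08, which was -0.31 without non-tumour 1 and turned to 0.12 without non-tumour 2 and to 0.01 without non-tumour 3 or normal 1. Among them Ddit4, an inhibitor of mTOR, was higher by 0.60, and Fgf21 and Atf3 were lower, as given above.

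Clock genes follow the hour at which tissue is taken, and the labels give no hour. Evening clock genes had 0 of 13 at the threshold and a median of -0.22, which turned to 0.36 without non-tumour 2 and was -0.75 without non-tumour 3. Dbp, an output gene of the clock, had 52.8, 2.35 and 87.1 TPM in non-tumour 1, 2 and 3 and 59.8, 30.1 and 81.3 TPM in normal liver, so non-tumour 2 was far below the rest. Nr1d1, encoding REV-ERB alpha, showed the same liver as lowest, at 22.9 TPM against 46.7 to 77.7 TPM in the others. Several metabolic genes above follow the clock or feeding, and the part of the hour in their values was not tested.

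Sex-biased genes, set in mouse liver by the rhythm of growth hormone, had medians that depended on single livers in GKO. Of 28 male-biased genes 0 were higher and 1 lower, Cyp2u1 by -0.62, and the median was 0.07. The median turned to -0.04 after median centring, to -0.21 without non-tumour 3 and to -0.24 without normal 3, and was 0.33 without non-tumour 2. The WT median of the same list was -1.36, or -0.54 without WT non-tumour 2, and the genotypes differed by a median of 1.44, or 0.60 without it. Of 13 female-biased genes tested, Cux2 and Cyp2a4 were higher and Abcd2 lower. Without non-tumour 1, non-tumour 3 or normal 2, 0 were higher, without normal 1 or normal 3 there was 1, and without non-tumour 2 there were 4, while without non-tumour 3 0 were lower. Cux2, a transcription factor of female liver, had 2.55, 0.316 and 7.10 TPM against 0.279, 0.0615 and 0.128 TPM, a difference of 1.54 (SE 0.57). Non-tumour 2 was close to the normal livers for Cux2, and non-tumour 3 was the highest. Abcd2, a peroxisomal transporter, had 2.94, 4.51 and 2.25 TPM against 5.29, 7.22 and 6.46 TPM, a difference of -0.82 (SE 0.25). Stat5b, the transcription factor that carries the growth hormone signal, had 15.4, 14.3 and 15.0 TPM against 9.59, 12.3 and 8.23 TPM, a difference of 0.54 (SE 0.21) with no overlap.

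Transcripts of the mitochondrial genome varied more between livers than between groups. Their summed level was 93725, 202206 and 94557 TPM in GKO non-tumour and 149310, 83000 and 168453 TPM in GKO normal liver, and the median difference was -0.07 with 0 of 15 at the threshold. That median was -0.31 without non-tumour 2 and 0.12 without normal 3. In WT liver the sums were 94338, 49149 and 42607 TPM against 157071, 165376 and 102044 TPM, and the median was -1.43 with 11 of 15 lower, or -1.32 with 6 lower without WT non-tumour 2. The difference between genotypes was positive for all 15 with a median of 1.29 and 5 at an unadjusted p under 0.05, or 1.23 and 1 without WT non-tumour 2.

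**Figure D5:**
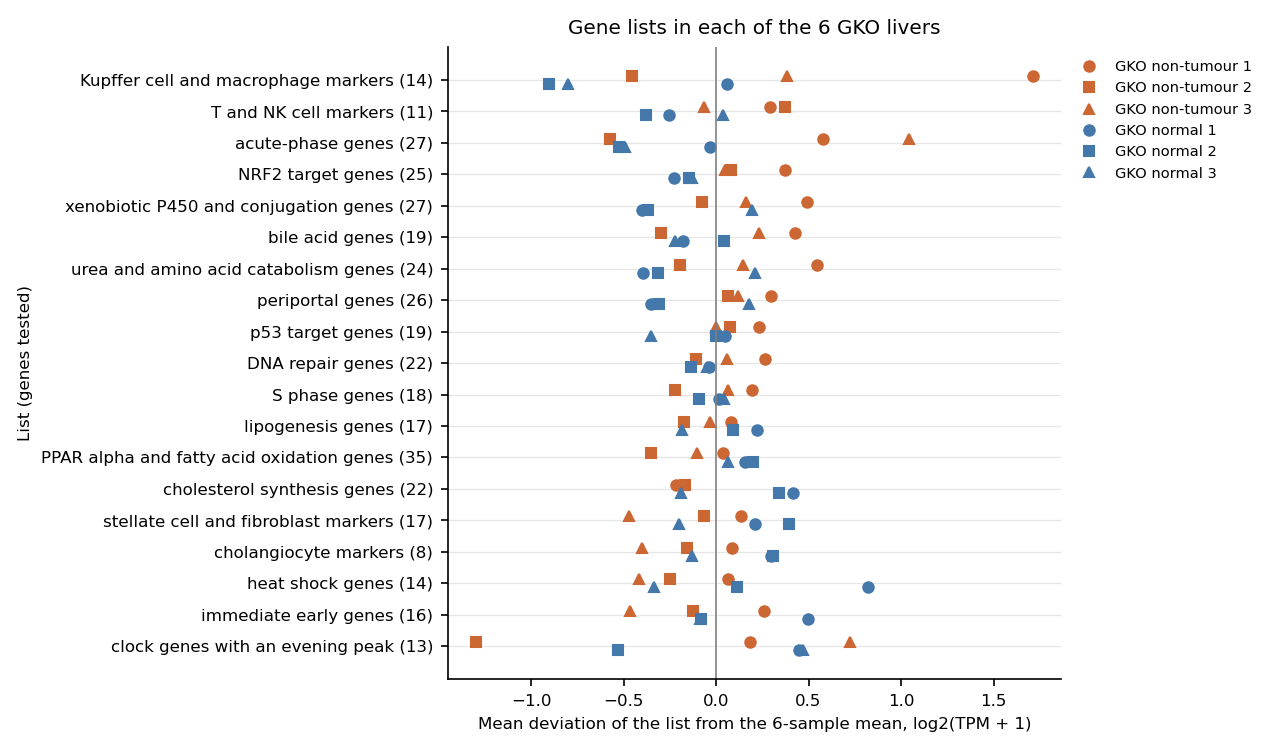
Mean log2 deviation of 19 gene lists from the average of the 6 GKO livers, one point per liver, with colour for the group and marker shape for the replicate. Macrophage markers are highest in non-tumour 1, cholesterol synthesis genes are highest in normal 1 and normal 2, and evening clock genes are lowest in non-tumour 2.

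The same comparison in WT liver gave more genes at the unadjusted threshold. Of 13440 genes tested limma called 1 (0.00744%), the pseudogene Mrpl48-ps with a difference of 3.04 and an adjusted p of 0.0156. There were 3008 genes higher (22.4%) and 274 lower (2.04%) at an unadjusted p under 0.05, with a median of 0.32, and after median centring there were 668 higher and 1188 lower. Without WT non-tumour 2 there were 4 calls, 2719 higher and 238 lower. Of the 539 genes that were higher in GKO at that threshold and tested in WT, 462 were also higher in mean in WT and 188 passed the threshold there in the same direction. This is read against all 12848 genes tested in both, of which 10275 were higher in WT non-tumour liver. Of 106 lower in GKO, 51 were also lower in WT and 13 passed the threshold the same way. The direct test of the difference called 0 genes, as given above, so no gene is shown to respond differently in the 2 genotypes.

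Genes with the smallest unadjusted p for that difference were, on the positive side, Nnmt, Cyp2c69, Dio3os, Gm22774 and Smim4. Nnmt, which methylates nicotinamide, had 386, 104 and 163 TPM in GKO non-tumour and 64.5, 102 and 4.47 TPM in GKO normal liver, a difference of 2.50. In WT liver Nnmt had 91.4, 14.9 and 46.1 TPM after DEN and 179, 186 and 822 TPM without it, a difference of -2.88. The groups did not overlap in either genotype and lay in opposite directions, and the difference between genotypes was 5.38 (SE 1.48, unadjusted p = 0.00356, adjusted p = 0.724 in limma), or 4.70 without WT non-tumour 2. Cyp2c69, a P450 of the Cyp2c cluster, had 60.5, 1.95 and 21.3 TPM against 2.97, 0.280 and 1.26 TPM in GKO, with overlap, and the difference between genotypes was 4.50, or 4.37 without WT non-tumour 2. Dio3os, Gm22774 and Smim4 gave 1.47, 1.56 and 1.09, or 1.31, 1.64 and 0.91 without that liver.

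On the negative side they were Aacs, Mid1ip1, Fam129b, Pklr and Gas6. Aacs, which makes acetoacetyl-CoA for lipid synthesis, had 2.75, 2.32 and 4.31 TPM against 12.5, 2.96 and 5.46 TPM in GKO and 9.41, 12.6 and 8.93 TPM against 1.87, 2.60 and 1.04 TPM in WT liver. The GKO groups overlapped while the WT groups did not, and the difference between genotypes was -2.82 (SE 0.55, unadjusted p = 0.000274, adjusted p = 0.724 in limma), or -2.68 without WT non-tumour 2. Pklr, liver pyruvate kinase, differed by 0.05 in GKO, or -0.057 after median centring, and by 1.98 in WT. Mid1ip1, an activator of acetyl-CoA carboxylase, differed by -0.32 in GKO and 1.25 in WT. The differences between genotypes were -1.93 for Pklr, -1.58 for Mid1ip1, -1.09 for Fam129b and -1.46 for Gas6, a ligand of the TAM receptors, and -1.86, -1.51, -1.10 and -1.60 without WT non-tumour 2.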

How the data were processed

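Livers were profiled by bulk RNA sequencing of total RNA. Per the submitters' processing notes, the authors aligned reads with STAR 2.7.3a to mm10 and counted them with featureCounts 2.0.0. The deposited values are TPM, 1 table for all samples. TPM multiplied by GENCODE vM21 exonic length gave whole reads, within 0.02, for 98.0% to 98.7% of values up to 30 reads, which set the depth. Genes with a mean TPM of at least 0.5 were tested on log2(TPM + 1) with limma 3.58.1 (lmFit, eBayes with trend) in R 4.3.3, Benjamini-Hochberg adjusted over all genes tested and called at 0.05. Differences are on the log2(TPM + 1) scale, which understates changes of low genes. The smallest exact permutation p for 3 against 3 livers is 0.1. WT liver was tested alike, and the difference by an interaction term over 12 livers. The members and lists were chosen with earlier results of these data known. Named genes were the 10 per direction with no overlap and the smallest p, up to 4 per list (smallest p, highest TPM), and 5 per direction of the genotype difference. Floors (3 reads) cover counting error only. Tests were checked on simulated data. Other normalizations, filters, offsets, left-out livers and a replicate block were tried. Figures used matplotlib 3.10.9. Results of 2 genes are not reported here.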

Additional observations from a re-analysis of the deposited data

Results flagged for a closer look

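For 4 named genes the non-tumour and normal livers did not overlap in either genotype, and the differences lay in opposite directions in GKO and WT. Only named genes were searched, and the share over all genes was not counted. Dio3os and Nnmt were named for their genotype difference, so their opposite directions partly follow from that choice. In GKO the Nnmt groups nearly met, at 104 TPM in non-tumour 2 and 102 TPM in normal 2. For the 4 genes the differences of the DEN effect, GKO minus WT on the log2 scale, were 1.47 for Dio3os (0.65 in GKO, -0.82 in WT), 5.38 for Nnmt (2.50 and -2.88), -0.90 for H2-Q10 (-0.43 and 0.46) and -2.04 for Atf3 (-0.49 and 1.54). By limma's interaction term their unadjusted p-values were 0.00196, 0.00356, 0.00601 and 0.111, and their adjusted p-values were all 0.724, so none passed the correction. Without WT non-tumour 2 the differences were 1.31, 4.70, -0.84 and -0.64. Groups of 3 livers are too small for a test of single outlying samples.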

How the results depend on the processing

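Of 1627 values of 100 named genes under 17 settings, 1616 kept their direction and side of the threshold and 10 reversed. Smim4 went from 0.08 to -0.025 under median centring and ran from -0.027 (without normal 3) to 0.25 (without normal 2) without single livers. Pklr went to -0.057 under median centring and -0.051 under quantile normalization, and ran from -0.19 (without non-tumour 1) to 0.30 (without non-tumour 2). Over single livers left out, Ephx1 ran from -0.040 (without non-tumour 1) to 0.41, and, with the highest value without non-tumour 2, Dbp ran from -2.003 to 0.36, Nr1d1 from -0.68 to 0.18 and Ebp from -0.23 to 0.037. The cause was not tested.

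In GKO, genes higher and lower at an unadjusted p under 0.05 numbered 891 and 195 with no filter, 171 and 51 at a mean of at least 5 TPM (fewer genes tested), 405 and 282 after median centring and 401 and 295 after quantile normalization. With 0.1 added to TPM they were 571 and 117, by voom on recovered reads 567 and 117, and, in settings chosen after seeing the data, 478 and 87 among protein-coding genes only and 503 and 103 at a mean of at least 10 reads. One fit of all 18 samples called 1 gene, Mir221 (adjusted p = 0.00138 in limma), which has 1 read per non-tumour liver. Leaving out single livers gave 0 to 2 calls, 324 (without non-tumour 3) to 902 (without normal 1) higher and 78 to 301 (without normal 3) lower. Higher genes also numbered 348, 357 and 884 without non-tumour 1, normal 2 and non-tumour 2. The genes called were Gm22121 without non-tumour 1, Gm17662 and Mir1968 without non-tumour 2, Mir7052 and Snord37 without normal 1, and Mir8099-2 without normal 2.

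In WT, calls numbered 4 with 0.1 added to TPM, 0 with no filter, 3 at a mean of at least 5 TPM, 46 in one fit of all samples and 0 to 4 without single livers. Higher and lower genes there numbered 1753 and 134 at a mean of at least 5 TPM, 668 and 1188 after median centring, 859 and 1001 after quantile normalization, and 1522 to 3415 and 169 to 362 without single livers, both lowest without WT normal 1. The difference between genotypes had 2 calls with no filter and 0 to 2 without single livers (2 without GKO normal 3). Its higher and lower genes numbered 299 and 943 with no filter, 42 and 366 at a mean of at least 5 TPM, 408 and 230 after median centring and 309 and 325 after quantile normalization. Without single livers they ran from 97 (without WT non-tumour 2) to 233 (without WT non-tumour 1) higher and from 319 (without GKO non-tumour 2) to 1491 (without GKO non-tumour 1) lower. Numbers did not pair the livers: same-numbered livers' deviations correlated at -0.299, -0.0918 and 0.0595. With the replicate block, 0 genes were called in GKO (574 higher and 135 lower), 0 in WT and 0 for the difference. With 3 livers a group, the median 95% half-width of 0.584 limits what could reach the unadjusted threshold, and a call after correction needs a larger difference.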
